A study of Mus musculus with 18 samples.

Results

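The genes described here are the class II odorant receptor (OR) genes numbered Olfr90 to Olfr138, nearly all of which lie beside the major histocompatibility complex (MHC) on mouse chromosome 17. They were chosen by symbol alone, as every row of the expression table named Olfr followed by a number from 90 to 138 with no pseudogene suffix. This gave 46 genes for the 49 numbers of that range, out of 1097 OR genes and 23359 gene symbols in all. No measured value entered the rule, but earlier results of these data were known when the group was set.

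RNA-seq was performed on cells of the main olfactory epithelium, the nasal sheet that holds the olfactory sensory neurons (OSNs), after fluorescence-activated cell sorting of 2 knock-in mouse lines. In the Taar5 line, Cre is translated from the Taar5 transcript and turns on the L10-GFP reporter (genotype TAAR5-Cre&L10-GFP, strain C57BL/6, postnatal days 11 to 14), and the series holds 7 GFP-positive libraries (Taar5+) and 9 GFP-negative libraries (control). In the Taar6 line, Cre comes from the Taar6 transcript and turns on ZsGreen (TAAR6-Cre&ZsGreen, C57BL/6, postnatal days 16 to 17), with 1 positive library (Taar6+) and 1 negative library. All 18 libraries therefore came from mice that carry a Cre allele and a reporter. The study's reporting summary names a mixed C57BL/6J and 129 background and older mice than the labels do. The reporter marks cells that have transcribed the tagged gene, a trace amine-associated receptor (TAAR), and the negative cells are a mixture of sorted cells in which most but not all cells are OR neurons. Nothing in the labels says whether the libraries of a group came from separate mice, so each p-value below measures only the spread between these libraries.

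ORs are seven-transmembrane receptors that bind odorants and signal through an olfactory G protein, adenylyl cyclase and a cyclic nucleotide-gated channel. A mature OSN transcribes a single OR gene, from a single allele, out of the whole repertoire. Class II is the larger OR class and the one typical of land vertebrates, and a cluster of it borders the MHC, the home of antigen presentation genes, in mouse as in human. In bulk libraries such as these, fewer neurons of a type and less RNA per neuron cannot be told apart.

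In the GENCODE M21 annotation of GRCm38 (mm10), 45 of the 46 genes lie at chr17:37083871-38336643, a stretch of 1252.773 kb with 23 genes on the plus strand and 22 on the minus strand. Olfr100 has no entry in that annotation and is given no position. The widest gap between neighbours, 124055 bases between Olfr128 and Olfr129, divides the row into a proximal block of 35 genes (Olfr90 to Olfr128) and a distal block of 10 (Olfr129 to Olfr136). The non-OR genes Ubd, H2-M2 and H2-M3 stand among the receptors. Each of the 45 annotated genes has its whole coding sequence in 1 exon, of 915 to 1158 bases with a median of 939. The annotated spans of Olfr115 and Olfr116, introns included, overlap on the same strand by 6533 bases. The span of Olfr98 overlaps that of the antisense transcript Gm20429 by 354 bases. Olfr92 and Olfr115 also overlap the pseudogenes Gm4831 (594 bases) and Gm18213 (570 bases). Reads from those stretches may belong to either gene, but overlap between exons was not computed.

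Many of these genes are close copies of each other, which limits how well their levels can be separated. Coding identity to the closest other gene of the group ranged from 48.5% to 98.1% with a median of 91.5%, against a median of 53.7% over all 990 pairs, and 28 pairs were at 90% or more. The closest pair, Olfr110 and Olfr111, differed at 18 coding bases. The next, Olfr117 of the proximal block and Olfr130 of the distal block, differed at 27. The opening 90 coding bases of these pairs and of the overlapping pair Olfr115 and Olfr116 are shown to make plain what a read from there can and cannot tell apart. They were taken from the GENCODE M21 transcripts and are printed 5′ to 3′, with the bases that differ from the partner in capitals. Olfr110 (chr17:37498653-37498742, plus strand) and Olfr111 (chr17:37529979-37530068, plus strand) were the same over all 90 bases, so their line carries no capitals. Olfr117 (chr17:37660242-37660331, minus strand) and Olfr130 (chr17:38067173-38067262, plus strand) differed at 1 base there, and Olfr116 (chr17:37624544-37624633, minus strand) and Olfr115 (chr17:37610666-37610755, minus strand) at 12. The stretch shown for Olfr115 lies outside its overlap with Olfr116.
Olfr110 and Olfr111: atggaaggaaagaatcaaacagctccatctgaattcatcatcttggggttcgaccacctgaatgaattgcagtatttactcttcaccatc
Olfr117: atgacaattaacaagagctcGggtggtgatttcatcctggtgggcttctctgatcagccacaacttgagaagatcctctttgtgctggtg
Olfr130: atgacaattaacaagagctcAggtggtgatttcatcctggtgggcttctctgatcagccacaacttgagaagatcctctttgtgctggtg
Olfr116: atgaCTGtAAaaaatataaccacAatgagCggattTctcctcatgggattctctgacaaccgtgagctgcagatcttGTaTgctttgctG
Olfr115: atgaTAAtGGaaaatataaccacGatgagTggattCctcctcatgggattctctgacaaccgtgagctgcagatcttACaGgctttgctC

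Over whole transcripts, 19 of the 45 annotated genes shared 10% or more of their 50-base words with a transcript of another gene, and 6 shared none. The share was highest for Olfr98 (39.5%), Olfr110 (31.8%) and Olfr92 (30.7%). How the authors treated reads that map to several genes is not given in the sources used here, so levels within a close pair are uncertain.

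Promoter sequences from RefSeq (GRCm38.p6, 250 bases before to 50 after the start) were at hand for 35 of the 46 genes. They were searched for CCCNNGGG, a motif of the type bound by the olfactory factor Ebf, and for TAATTA, a homeodomain motif of the type bound by Lhx2, each of which reads the same on both strands. CCCNNGGG occurred in 5 of the 35 windows (14.3%), against 2.64% of 909 windows of other OR genes and 13.7% of all 32851 windows. TAATTA occurred in 4 (11.4%), against 18.9% and 5.29%. The RefSeq start lay within 100 bases of the GENCODE start of the gene for only 4 of the 35 windows. Most of the windows therefore lie inside the GENCODE gene model and are not its promoter. Upstream of the RefSeq starts of Olfr98, Olfr99 and Olfr108 the motif sat in an almost repeated stretch of 28 bases, which is why these are shown, 5′ to 3′ on the strand of the gene and with the motif in capitals. Olfr98 (chr17:37263827-37263854, minus strand) and Olfr99 (chr17:37280588-37280615, minus strand) differed at 2 of the 28 bases, and Olfr99 and Olfr108 (chr17:37445363-37445390, plus strand) at 1. Near copies of a stretch are not separate cases of the motif, so the share of 14.3% rests in part on repeats. The RefSeq start of Olfr99 lies 3042 bases inside its GENCODE gene, and the site in the Olfr93 window lies after the RefSeq start.
Olfr98: ctttctgtttCCCTAGGGagccattttt
Olfr99: ctttatgtctCCCTAGGGagccattttt
Olfr108: ctttatgtctCCCTAGGGagacattttt

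All levels below are TPM (transcripts per 1000000), a share of the library corrected for gene length, which allows genes to be compared with each other. Sequencing depth is unknown, since TPM do not retain it, and a 0, which can be a failed estimate, is called listed at 0. The number of table rows above 0 ran from 5939 in control 2 to 17808 in Taar5+ 5. These libraries stood apart and results are given with and without them. Control 2 also carried the Taar values of control 1 for 13 Taar genes, which were left out of it. Mature OSN markers, Omp among them, were high in every library, with summed levels of 13394 to 47687 TPM in controls and 20668 to 28231 TPM in Taar5+. Stoml3, of the same list, was lower in every Taar5+ library (2900 to 7921 TPM) than in any control (8364 to 24318 TPM). The groups overlapped for each of the other genes of the list, with Omp at 3908 to 20070 TPM in controls and 8597 to 18195 TPM in Taar5+. Summed Taar TPM were 94.5 to 403 in controls and 1517 to 7804 in Taar5+, lowest in Taar5+ 5. Markers of other cells varied between libraries as well. Sustentacular markers (4 genes) summed to a median of 410 TPM in controls and 294 TPM in Taar5+ and were highest in the libraries that stood apart, at 6325 TPM in control 2 (other controls up to 783) and 8737 TPM in Taar5+ 5 (other Taar5+ up to 1833). Immature OSN markers (4 genes) had medians of 2899 and 1498 TPM, and ensheathing glia markers (3 genes) of 56.5 and 18.2 TPM. Progenitor markers (4 genes) summed to a median of 51.4 TPM in controls and 3.04 TPM in Taar5+, microvillar markers (3 genes) to 122 and 5.73 TPM, and horizontal basal markers (3 genes) to 98.0 and 5.01 TPM, and no gene of these lists was at 0 in every library of a group. The ranges of the groups overlapped for each of these lists. Their part in the results below was not tested.

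The class II genes near the MHC were far lower in Taar5+ than in control cells. Their summed level was 740 ± 306 TPM in controls (SD, n = 9) and 72.1 ± 105 TPM in Taar5+ (SD, n = 7), so that the Taar5+ mean was 9.74% of the control mean. The sums in controls 1 to 9 were 717, 309, 642, 420, 881, 1318, 1034, 657 and 685 TPM. Those in Taar5+ 1 to 7 were 172, 45.1, 14.5, 0, 266, 1.58 and 6.13 TPM. Every Taar5+ library lay below every control, the gap being narrow between Taar5+ 5 and control 2, and in Taar5+ 4 all 46 genes were listed at 0. On the log2(sum + 1) scale the mean was 9.42 in controls and 4.17 in Taar5+, a difference of -5.25 (exact two-sided permutation test over 11440 arrangements, p = 8.74e-05, the smallest it can give). Without control 2 the control sums averaged 794 ± 278 TPM (SD, n = 8), and without Taar5+ 5 the Taar5+ sums averaged 39.9 ± 66.7 TPM (SD, n = 6).

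**Figure D1:**
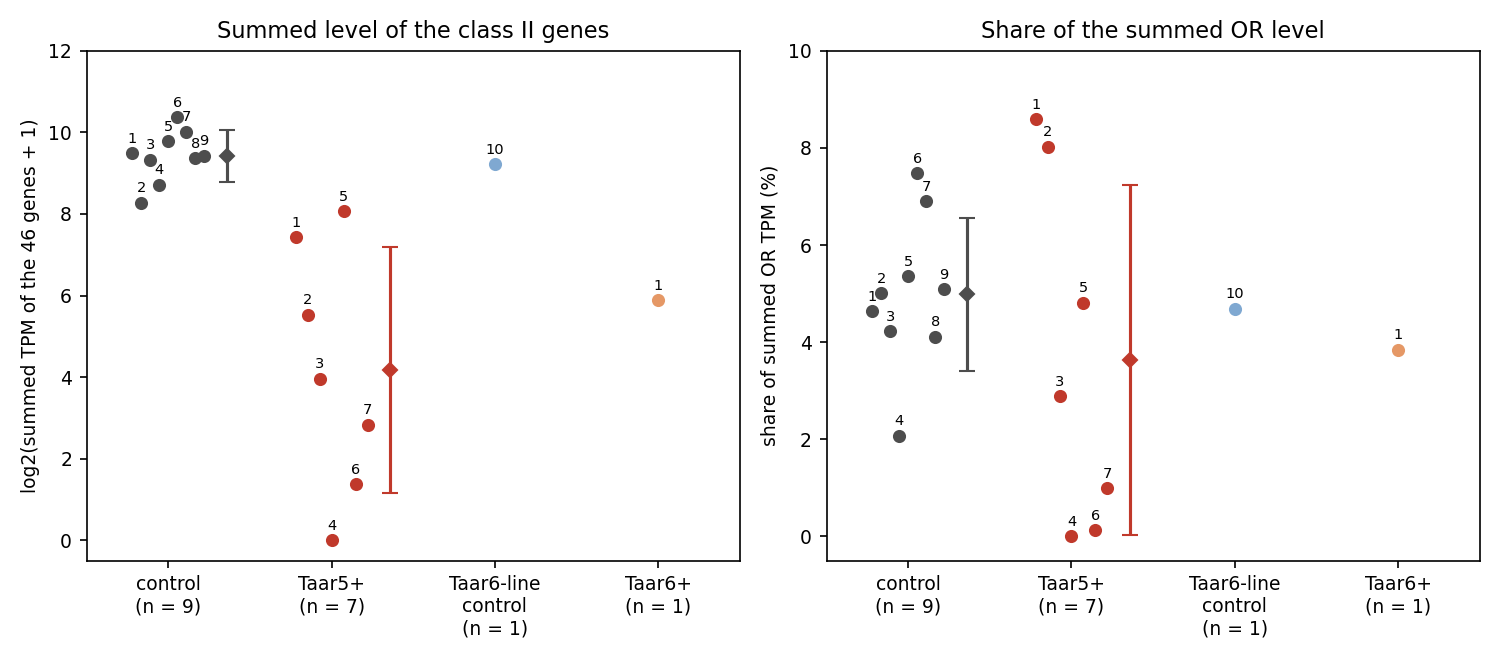
Each point is a library, numbered by replicate; the left panel plots log2(summed TPM + 1) of the 46 genes and the right panel their share of the summed OR TPM in percent, with the group mean and SD as a diamond and bar. The 7 Taar5+ sums all sit below the 9 control sums, whereas the shares of both groups overlap.

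No difference from the other ORs passed the test. Summed OR TPM in Taar5+ was 10.1% of the control mean over all 1097 OR genes. The paper had already reported lower OR expression in the sorted reporter-positive cells. By chromosome, the other OR genes stood at 6.80% to 12.2% of their control mean in Taar5+ on the 11 chromosomes compared. The class II genes near the MHC made up 4.99% ± 1.58 of summed OR TPM in controls (SD, n = 9; 2.07% to 7.47%) and 3.63% ± 3.61 in Taar5+ (SD, n = 7; 0% to 8.59%). The difference of -1.35 percentage points was within the spread between libraries (exact two-sided permutation test, p = 0.324), and the groups overlapped widely. Among Taar5+ libraries the share was 8.59% in Taar5+ 1 and 8.03% in Taar5+ 2, above every control, and under 1% in Taar5+ 4, 6 and 7, below every control.

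Both blocks of the cluster were lower. The proximal block summed to 526 ± 184 TPM in controls and 47.6 ± 75.3 TPM in Taar5+, and the distal block to 203 ± 128 and 22.6 ± 41.7 TPM (SD, n = 9 and 7). In controls a gene of the group averaged 16.1 TPM (median gene 11.6 TPM), and one of the other 1051 OR genes 13.6 TPM (median 7.71 TPM).

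Fewer of the genes were detected in Taar5+ cells. At 1 TPM or more, controls 1 to 9 held 36, 2, 35, 11, 34, 35, 16, 13 and 40 of the 46 genes, and Taar5+ 1 to 7 held 21, 3, 5, 0, 34, 1 and 2. The groups overlapped, with Taar5+ 5 among the fuller controls and control 2 among the emptier Taar5+ libraries. The means of 24.7 and 9.43 genes differed by -15.2 (exact two-sided permutation test, p = 0.0447). The call was lost under 12 of the 20 alternatives tried. Counting genes above 0 TPM, the difference was -14.8 (p = 0.0919), and leaving out any one of controls 1, 3, 5, 6 and 9 and Taar5+ 2, 3, 4, 6 and 7 gave -14.5 to -13.3 (p = 0.0715 to 0.0827 by the same exact test). Without Taar5+ 5 it was -19.3 (exact p = 0.0128), and without control 2 it was -18.1 (exact p = 0.0190).

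Among controls the number detected moved with the number of table rows above 0. Among Taar5+ libraries it did so less clearly, with 5 genes in Taar5+ 3 (13720 rows) and 2 in Taar5+ 7 (14495 rows). The part of the row number in the difference between groups was not tested. The 5 controls with 14648 rows or more held 34 to 40 of the genes at 1 TPM or more, whereas the 4 controls with 11706 rows or fewer held 2 to 16. At a like number of rows, control 6 (14648 rows) held 35 of the genes, Taar5+ 1 (14424 rows) held 21 and Taar5+ 7 (14495 rows) held 2. Lower down, control 4 (11352 rows) held 11, Taar5+ 2 (11331 rows) held 3 and Taar5+ 6 (11408 rows) held 1. At the top, control 9 (17015 rows) held 40 and Taar5+ 5 (17808 rows) held 34. In most libraries the share of the other OR genes at 1 TPM or more was much the same as that of these genes: 81.6% against 78.3% in control 1, and 74.0% against 73.9% in Taar5+ 5. They were further apart in Taar5+ 1 (25.2% against 45.7%), control 6 (58.0% against 76.1%) and, the other way, control 4 (38.2% against 23.9%).

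**Figure D2:**
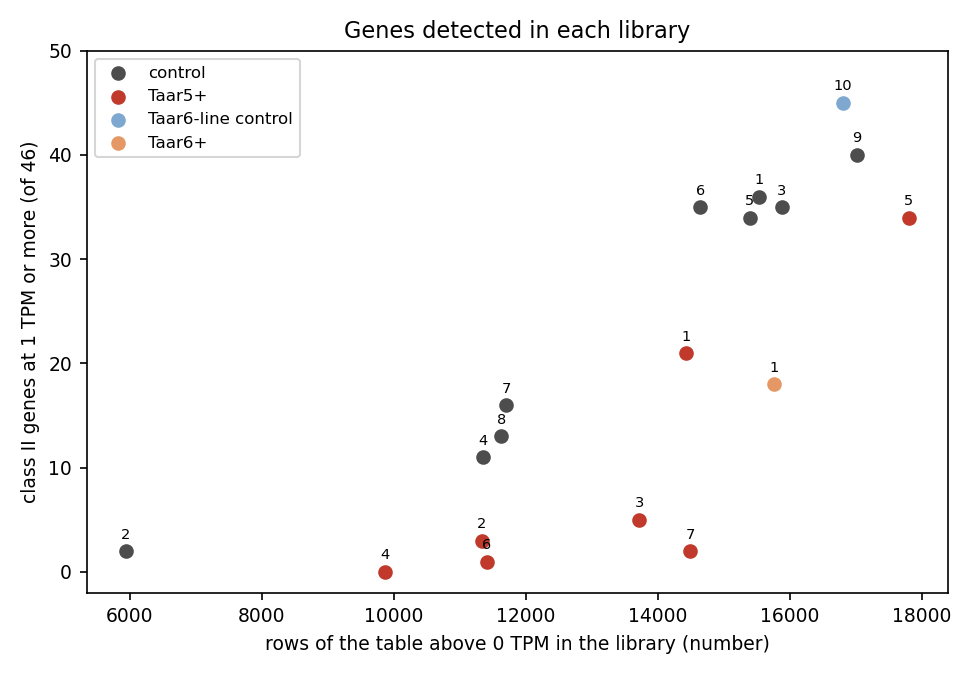
Each point is a library, numbered by replicate and coloured by group; the horizontal axis is the number of table rows above 0 TPM and the vertical axis the number of the 46 genes at 1 TPM or more. Controls with many rows hold 34 to 40 of the genes. Taar5+ 1 and 7, with nearly as many rows as control 6, hold fewer, and Taar5+ 5, with the most rows, holds 34.

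The number of genes that carried the signal varied widely between libraries. None of the 46 genes was above 0 in all 9 controls, and 4 were above 0 in all controls but control 2. In the controls 164 of 414 values were listed at 0, and in Taar5+ 231 of 322. The leading gene of a control took from 8.59% of the summed level in control 9 (Olfr115) to 97.0% in control 2 (Olfr118), and the top 3 genes took from 23.4% in control 9 to 100% in control 2. In Taar5+, 44 genes were above 0 in some library, 33 in one other than Taar5+ 5, and 13 in one other than Taar5+ 1 and Taar5+ 5, and the median over the 7 libraries was 0 for 42 of the 46.

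**Figure D3:**
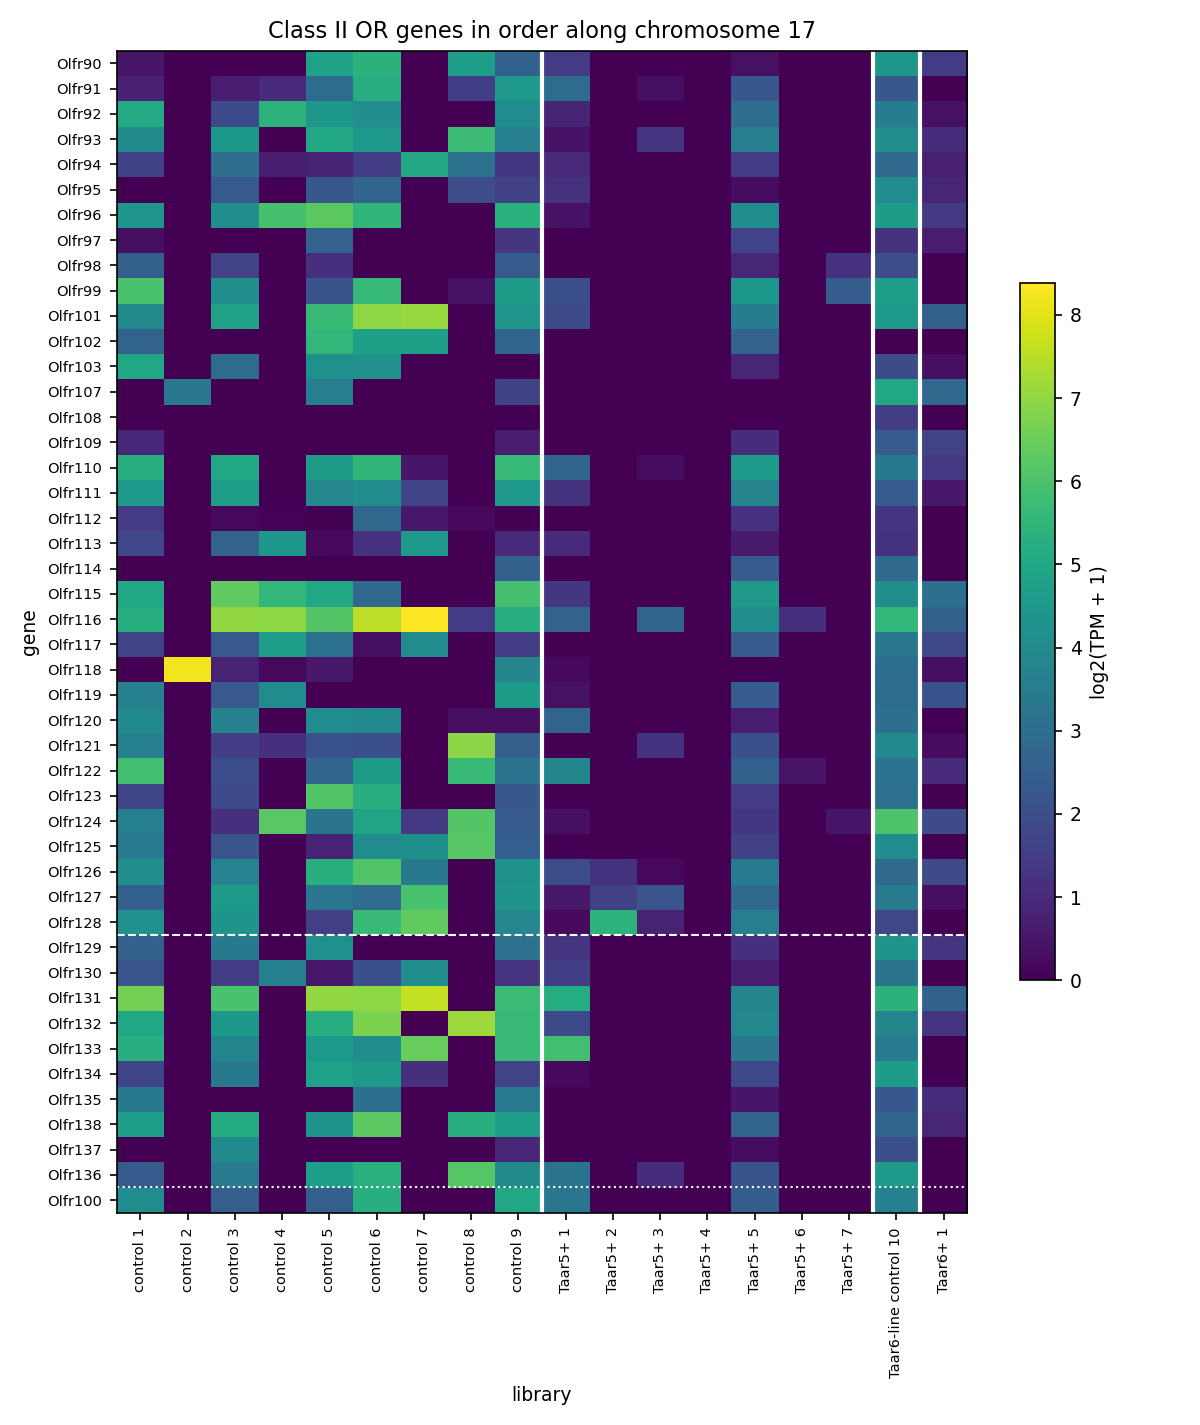
Rows are the 46 genes in their order along chromosome 17, columns the 18 libraries, and colour is log2(TPM + 1); the dashed line marks the widest gap, and Olfr100, which has no position, is last. Controls show scattered high genes that differ between libraries, and most Taar5+ columns are near 0 except Taar5+ 1 and Taar5+ 5.

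The highest genes of the controls came from both blocks. Olfr116, in the proximal block, averaged 101 ± 107 TPM in controls and 4.03 ± 5.91 TPM in Taar5+ (SD, n = 9 and 7). Its control values ran from 0 (control 2) through a median of 68.9 to 333 TPM (control 7), and its Taar5+ values from 0 through 1.21 to 16.2 TPM (Taar5+ 5). Control 8, at 1.73 TPM, and control 2 lay within the Taar5+ range, and the other controls above it. The estimate from limma was -3.82 ± 1.09 (log2, SE; Benjamini-Hochberg adjusted p = 0.237). Olfr116 was the leading gene in controls 3, 4, 6 and 7. Its neighbour Olfr115, which overlaps it, stood at 28.1 ± 29.2 TPM in controls and 3.34 ± 8.17 TPM in Taar5+, where 21.8 TPM in Taar5+ 5 was far above the rest.

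Olfr131 and Olfr132 led the distal block. Olfr131 averaged 73.1 ± 68.5 TPM in controls, from 0 through a median of 62.2 to 195 TPM, and 6.97 ± 13.6 TPM in Taar5+, where 2 libraries were above 0, Taar5+ 1 at 35.6 TPM and Taar5+ 5 at 13.2 TPM. Olfr132 averaged 42.6 ± 49.5 TPM in controls, from 0 through 30.8 to 140 TPM, and 2.40 ± 5.25 TPM in Taar5+, again in Taar5+ 1 and 5 only. Both genes were listed at 0 in 3 controls, so the groups overlapped. Their limma estimates were -3.14 ± 1.32 (adjusted p = 0.583) and -2.98 ± 1.12 (adjusted p = 0.453).

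Olfr101 and Olfr96, both proximal, had the same shape. Olfr101 ran from 0 through a median of 19.7 to 136 TPM in controls and reached 10.4 TPM in Taar5+, and Olfr96 ran from 0 through 20.1 to 76.9 TPM and reached 15.8 TPM. Each was above 0 in 6 controls and in 2 Taar5+ libraries, Taar5+ 1 and 5. The limma estimates were -2.87 ± 1.10 (adjusted p = 0.469) and -2.87 ± 1.04 (adjusted p = 0.422).

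Olfr118 owed its rank to a single library. It was at 299.8 TPM in control 2, at 13.0 TPM in control 9, under 1 TPM in 3 others and listed at 0 in the remaining 4 controls, and in Taar5+ at 0.162 TPM in Taar5+ 1 alone. Control 2 held only Olfr118 and, at 9.24 TPM, Olfr107, of all 46 genes. Olfr118 was too low in most libraries to enter the limma fit.

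Olfr124 and Olfr138 had the smallest p-values beside Olfr116. Olfr124 was above 0 in every control but control 2, from 1.22 to 74.9 TPM with a median over all 9 of 8.25, and in Taar5+ it was above 0 in 3 libraries, at 0.268, 1.56 and 0.405 TPM. Only Taar5+ 5 exceeded a control other than control 2. Olfr138 ran from 0 through 24.4 to 76.9 TPM in controls and was listed at 0 in all Taar5+ libraries but Taar5+ 5 (5.44 TPM). The limma estimates were -2.92 ± 0.81 (adjusted p = 0.217) for Olfr124 and -3.0 ± 0.96 (adjusted p = 0.312) for Olfr138.

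Beside Olfr131, the genes highest in Taar5+ owed most of their level to 1 library each. Olfr133 averaged 9.41 ± 21.2 TPM in Taar5+, with 56.9 TPM in Taar5+ 1 and 9.04 TPM in Taar5+ 5 and 0 elsewhere, against 24.8 ± 28.4 TPM in controls. Olfr128 averaged 7.70 ± 15.5 TPM, with 41.6 TPM in Taar5+ 2, where it made up 92.2% of the summed level, against 20.4 ± 27.5 TPM in controls. Both overlapped the controls, with limma estimates of -1.99 ± 1.14 (adjusted p = 0.851) and -1.45 ± 1.09 (adjusted p = 0.935).

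The close pairs named above were described after their values were seen. Olfr110 and Olfr111 were above 0 in the same 6 controls, at 20.5 ± 20.5 and 11.2 ± 10.7 TPM over all 9, and at 4.03 ± 8.35 and 1.95 ± 4.6 TPM in Taar5+. Olfr117 and Olfr130 were above 0 in the same 7 controls, at 6.28 ± 8.58 and 4.23 ± 5.69 TPM. Sharing the same controls was not particular to these pairs. Olfr101 and Olfr131, among others, were above 0 in the same 6 controls as Olfr110 and Olfr111. Olfr113 was above 0 in the same 7 as Olfr117 and Olfr130. How reads common to a pair were divided between its genes was not tested.

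Of the remaining genes, Olfr108 was listed at 0 in all 16 libraries of the Taar5 line. Olfr114, with means of 0.554 TPM in controls and 0.622 TPM in Taar5+ and 1 library above 0 in each, was the exception among the other 45 in having the higher mean in Taar5+. Control means were 20 TPM or more for 12 genes and under 1 TPM for 5.

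Across all genes, limma on log2(TPM + 1) tested the 12502 genes that reached 1 TPM in 7 or more of the 16 Taar5-line libraries, and 28 of the 46 were among them. None of the 28 passed an adjusted p of 0.05, at which 0.168% of all genes tested passed in either direction and 0.024% were lower in Taar5+. At an unadjusted p under 0.05, 20 of the 28 were lower in Taar5+ (71.4%), as were 301 of 447 other OR genes tested (67.3%) and 5.38% of all genes. All 28 estimates were below 0, from -3.82 to -1.07 with a median of -1.93, beside a median of -2.17 over the other OR genes (444 of 447 below 0) and 0.02 over all genes. A filter on low values keeps genes that are high in controls, so the 28 do not stand for all 46. The 18 not tested had control means from 0 to 34.9 TPM (median 2.70), and 16 of them were higher in controls. Of all genes tested, 5 had every Taar5+ library below every control, and none of them was among the 46.

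**Figure D4:**
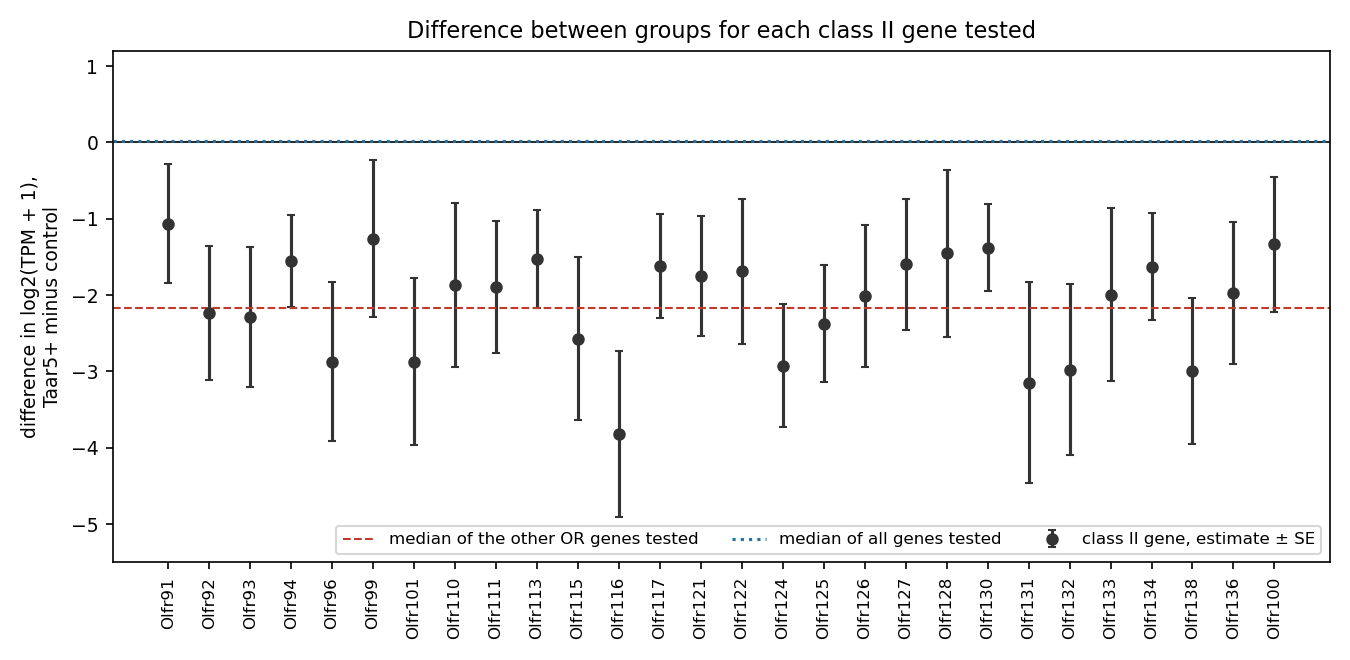
Points are the 28 genes tested, in order along chromosome 17 with Olfr100 last, at the limma difference in log2(TPM + 1) between Taar5+ and control, with SE bars; the dashed line is the median of the other OR genes tested and the dotted line that of all genes. Every estimate lies below 0, from -3.82 to -1.07, around the median of the other ORs.

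The calls depended on the libraries that stood apart. Without control 2, 2 of 28 passed the adjusted threshold, Olfr116 (adjusted p = 0.0173) and Olfr124 (adjusted p = 0.0298), where 0.939% of all genes did; of the other OR genes 72 of 439 passed. Without control 2 and Taar5+ 5, 4 of the 19 still tested passed (Olfr115, Olfr116, Olfr124 and Olfr132), against 2.42% of all genes and 131 of 286 other OR genes. With library weights estimated by limma, 27 of 28 passed, against 9.7% of all genes and 397 of 447 other OR genes. The estimates were below 0 for all of the genes in each of these fits.

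In the Taar6 line, with 1 library per group and hence no test, the pattern was alike. The summed level was 595 TPM in the negative library and 58.2 TPM in Taar6+, and the share of summed OR TPM 4.69% and 3.85%. The negative library had all 46 genes above 0 and 45 at 1 TPM or more, and Taar6+ had 28 and 18. All 46 genes were lower in Taar6+. Of the 45 with at least 1 TPM in either library, 41 were lower by 1 or more in log2(TPM + 1), where 13.8% of all genes were, and the median difference was -2.55, beside -2.45 for the other OR genes and -0.21 for all genes. Olfr124 led the negative library at 64.6 TPM, with 2.74 TPM in Taar6+, and Olfr115 led Taar6+ at 7.41 TPM, with 16.4 TPM in the negative library. Olfr107 stood at 31.6 and 6.32 TPM, and Olfr108 at 1.86 TPM in the negative library and 0 in Taar6+, its only value above 0 in the series.

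Some of the non-receptor genes examined, in or near the cluster or of MHC class I, had lower values in Taar5+, without passing the adjusted threshold. Of 10 neighbours and MHC class I genes, 5 were tested and none was called. At an unadjusted p under 0.05, 3 were lower (Ubd, H2-D1 and B2m), as were 5.38% of all genes tested. Of these 3, only Ubd lies among the receptors. Ubd, a ubiquitin-like modifier whose gene (chr17:37193892-37196095) lies among the receptors, had a median of 4.65 TPM in controls, from 0 to 56.7 TPM, and was above 0 in Taar5+ 1 and 5 only, at 1.35 and 2.62 TPM (-2.04 ± 0.69, adjusted p = 0.352). H2-D1, a class I heavy chain whose gene (chr17:35262730-35267499) lies outside the cluster, ran from 18.8 through 50.1 to 112 TPM in controls. In Taar5+ it ran from 0 through 11.6 to 155 TPM (-2.34 ± 0.82, adjusted p = 0.388). B2m, the class I light chain on chromosome 2, ran from 118 through 187 to 327 TPM and from 54.5 through 104 to 158 TPM (-0.85 ± 0.27, adjusted p = 0.312). H2-K1 had an estimate of -0.80 ± 0.90 (adjusted p = 0.955), and Gabbr1, a GABA-B receptor subunit next to Olfr90, of 0.63 ± 0.48 (adjusted p = 0.936), with overlapping groups for both. H2-M2 and H2-M3, nonclassical class I genes inside the cluster, averaged under 1 TPM in both groups, and H2-M5, H2-M9 and the myelin gene Mog were listed at 0 in all 16 libraries. The Taar6 line, with 1 library per group and no test, did not show these lower values. B2m was at 108 TPM in its negative library and 305 TPM in Taar6+, H2-D1 at 57.4 and 89.2 TPM, and H2-K1 at 44.1 and 74.0 TPM. Gabbr1 was at 204 and 217 TPM there, and Ubd was listed at 0 in both libraries. H2-M3 was at 0.160 TPM in the negative library and 6.72 TPM in Taar6+, and H2-M2 at 0.590 and 0 TPM. Blood and immune markers, which also move between these libraries, summed to 248 to 6443 TPM in controls and 18.9 to 1668 TPM in Taar5+. The highest sums were mostly the haemoglobin gene Hba-a1, at 6192 TPM in control 1 and 1262 TPM in Taar5+ 5. Of the immune genes, Cd74 ran from 18.2 to 307 TPM in controls and 0 to 114 TPM in Taar5+. Lyz2 ran from 26.5 to 459 TPM and from 0 to 237 TPM. The part of these markers in the values above was not tested.

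No difference passed the test among the genes through which OR neurons express and use their receptor. All 16 of them, among them Gnal, Adcy3 and Cnga2 of the transduction pathway, the receptor chaperones Rtp1 and Rtp2, and the receptor choice factors Lhx2, Ldb1 and Ebf1, were tested. None passed the adjusted threshold and none had an unadjusted p under 0.05, and the median estimate was 0.09. Rtp1 was at 824 TPM in controls and 837 TPM in Taar5+ on average, and Cnga2 at 1501 and 1453 TPM.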

How the data were processed

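Per the labels and the study's methods, the authors sorted cells of the main olfactory epithelium by reporter fluorescence, made Smart-seq2 libraries (PCR-amplified cDNA, no molecular identifiers), trimmed reads with Trimmomatic 0.36, mapped them to mm10 with HISAT2 2.1.0 and quantified genes with Cufflinks 2.2.1. The authors deposited TPM in a table of 23847 rows and 18 libraries; each column summed to 1000000 except that of control 2, at 1000115. The step from Cufflinks output to TPM, the annotation, filters, strand and multi-mapping reads are not given in the sources used here. TPM keep no read depth, so depth and counting error are unknown.

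The 488 rows repeating a symbol were summed with it, and 0 of them were genes of the group. Groups came from the sample titles. The Taar values of control 2, copied from control 1, were set to missing. For every gene that reached 1 TPM in 7 or more of the 16 Taar5-line libraries, log2(TPM + 1) was fitted by limma 3.58.1 (R 4.3.3; lmFit, then eBayes with a trend), and p-values were adjusted by Benjamini and Hochberg's method over all genes, with a threshold of 0.05. Differences on this scale understate changes of low genes. Sums, shares and numbers detected were compared by exact two-sided permutation tests over libraries. Positions, overlaps and transcripts came from GENCODE M21 and promoter windows from RefSeq. Named genes were the 6 highest in controls, the 3 highest in Taar5+, those past the threshold or else the 3 with the smallest p, and the highest of each Taar6-line library. The 10 MHC neighbours, the 16 pathway genes and the marker lists, like the group itself, were chosen with earlier results of these data known. Alternatives were another pseudocount (0.1), filter, normalization, prior, library weights, a replicate block and leaving out libraries.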

Additional observations from a re-analysis of the deposited data

Results flagged for a closer look

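Among 38 sets of values of named genes and sums, 1 library stood far from the others of its group in 17 by Dixon's test. The 1.9 that chance would give holds for independent, normally distributed values. These sets share libraries and hold many zeros, and a set with a single value above 0 is always flagged. The number flagged is therefore descriptive only. Taar5+ 5, the library with the most rows above 0 and the lowest summed Taar TPM of its group, gave 9 of them: Olfr116 at 16.2 TPM (others up to 5.59), Olfr132 at 14.1 TPM (up to 2.67), Olfr101 at 10.4 TPM (up to 2.90), Olfr96 at 15.8 TPM (up to 0.334), Olfr124 at 1.56 TPM (up to 0.405), Olfr138 at 5.44 TPM (others at 0), Olfr115 at 21.8 TPM (up to 1.56), H2-D1 at 155 TPM (up to 29.0) and H2-K1 at 97.2 TPM (up to 39.2). Taar5+ 1 gave 4: Olfr131 at 35.6 TPM (others up to 13.2), Olfr133 at 56.9 TPM (up to 9.04), Olfr118 at 0.162 TPM (others at 0) and Gabbr1 at 54.0 TPM (up to 29.9).

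The other flagged values were Olfr128 at 41.6 TPM in Taar5+ 2 (others up to 11.3), Olfr118 at 299.8 TPM in control 2 (up to 13.0), Olfr138 at 76.9 TPM in control 6 (up to 38.5) and Ubd at 56.7 TPM in control 7 (up to 9.20).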

How the results depend on the processing

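The summed level of the genes stayed lower in Taar5+ under all 22 alternatives, with exact permutation p from 8.74e-05 to 0.0156, and the share of summed OR TPM passed under none of 21 (exact p = 0.0961 to 0.579). The number of genes at 1 TPM or more lost its call when counted above 0 TPM (-14.8, p = 0.0919) and with the replicate block (-14.7, exact sign-flip permutation over 7 pairs, p = 0.0625); leaving out single libraries gave -19.3 to -13.3. Genes past the threshold numbered 0 in 22 settings, 4 without both control 2 and Taar5+ 5, and 27 with library weights; leaving out single libraries gave 0 to 2, the 2 coming without control 2. Neighbour genes past it numbered 2 without both libraries and 3 with library weights. Over all genes, 21 passed in the full set, 13 with the replicate block, 36 after quantile normalization, 66 without Taar5+ 5, 148 without control 2, 337 without both and 1410 with weights; the cause was not tested. The labels do not say what a replicate number marks; same-numbered libraries correlated at -0.01 to 0.28, over 0.1 in 5 of 7 pairs, and numbers 1, 4, 5 and 7 correlated best with their own, a hint of pairing from the data and not from the design. None of 230 estimates for named genes changed sign. The table had 0 pseudogene rows in the number range, so adding them gave no value. Unknown depth, listed zeros and near-identical copies limit every single-gene value.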
